A study of Homo sapiens with 24 samples.

Results

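HCC38 is an established human triple-negative breast cancer line, that is, a line from a breast tumour without hormone receptors or amplified HER2. Its expression program was described here from 6 of 24 single-colour Illumina bead arrays, chosen by the line named in the sample label. The 6 HCC38 arrays came from cells given 2 µM cisplatin, a drug that crosslinks DNA, for 0, 24 or 72 h, with 2 replicates at each time. The other 18 arrays came from the lines MDA-MB-231, BT549 and MDA-MB-157, all triple-negative as well, with the same dose, times and number of replicates. Cisplatin was the only treatment, and the 0 h arrays stand for cells without it; cultures kept untreated for 24 or 72 h were not analysed here. The submitters call the replicates independent without saying how they were kept apart, so the p-values measure the spread between these cultures. Each line is a single model of its tumour, and a difference between HCC38 and the others is one between lines.

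Breast epithelium has luminal cells, which face the duct, and basal cells beneath them. Epithelial cells hold together through E-cadherin junctions, desmosomes and tight junctions, while mesenchymal cells carry vimentin and are held in that state by the SNAI, ZEB and TWIST repressors. Triple-negative lines range between both states. Kallikrein-related peptidases are secreted serine proteases that activate one another and shed desmosomal proteins at epithelial surfaces, and retinoic acid is a vitamin A derivative that switches on target genes through nuclear receptors.

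The levels below are log2 intensities after background correction and quantile normalization, with a lower end between 4.82 and 5.10 on this scale for a signal just above background. A probe counts as detected where its deposited detection p-value is under 0.05. Between 20235 and 21976 of 47322 probes were detected on the HCC38 arrays, in the upper part of the range of 18303 to 21976 over all 24 arrays. Arrays of the other lines detected 18303 to 21189, most of them fewer than any HCC38 array. HCC38 arrays correlated with each other across genes at 0.980 to 0.991, and with arrays of the other lines at 0.861 to 0.890. Some arrays stood apart. The first HCC38 array at 0 h had the most detected probes, 21976. Before normalization its 75th percentile of intensity was 274.6, against 152.6 to 174.6 on the other HCC38 arrays. The first arrays of BT549 at 0 h and MDA-MB-231 at 24 h were likewise high, at 281 and 283.1. Replicates of HCC38 differed by over 2-fold in at most 258 genes, while those of MDA-MB-231 at 0 h differed in 765, of BT549 at 72 h in 527 and of BT549 at 24 h in 498. The second MDA-MB-231 array at 0 h detected 11 of the 15 leading genes of HCC38, with a median level of 5.57, where the 5 other MDA-MB-231 arrays detected 3 to 5 of them with medians of 4.55 to 4.64. The second BT549 array at 72 h detected 10 of the 15, with a median of 5.46. The counts of genes higher and lower in HCC38, defined in the next paragraph, were 883 and 651 without that MDA-MB-231 array, 966 and 718 without both MDA-MB-231 arrays at 0 h, and 850 and 620 without that BT549 array, against 874 and 632 with all arrays.

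A gene was called higher or lower in HCC38 where limma gave an adjusted p under 0.05 in the same direction against each of the 3 other lines at each of the 3 times, which makes 9 comparisons. Of 14807 genes tested, 874 (5.90%) were higher in all 9 and 632 (4.27%) were lower in all 9. Against the mean of the other lines averaged over times, 4468 genes (30.2%) were higher and 4641 (31.3%) lower, and the median difference over all genes was -0.04 on the log2 scale. The balance of the directions depended on the scaling. When every array was scaled to its own median, 427 genes were higher and 123 lower, so that the higher share of calls was 77.6% there and 58.0% here. The detection filter asked for signal on at least 2 of the 24 arrays, so a gene detected on under 2 of the 18 other arrays was tested only because HCC38 had it; such members of a list had to differ, and the counts and medians of lists given below are descriptions. By the same rule, BT549 had 542 higher (3.66%) and 467 lower (3.15%), MDA-MB-157 had 827 (5.59%) and 561 (3.79%), and MDA-MB-231 had 527 (3.56%) and 355 (2.40%).

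The difference was at least 1 log2 in each of the 9 comparisons for 464 higher and 239 lower genes. Of the 874 higher genes, 860 were detected on all 6 HCC38 arrays, and 122 of these on none of the 18 others. Of the 632 lower genes, 629 were detected on all 18 other arrays, and 22 of these on no HCC38 array. The line nearest to HCC38 varied from gene to gene. Among the higher genes it was BT549 for 299, MDA-MB-157 for 272 and MDA-MB-231 for 303, and among the lower ones it was BT549 for 193, MDA-MB-157 for 178 and MDA-MB-231 for 261. At the edge of the rule, SASS6 just missed the higher set with a mean difference of 0.85, and HMGN2 just missed the lower set at -0.89. BLACAT1 just entered the higher set at 1.48, and TPP1 the lower set at -1.95. With the slide as a block, 883 genes were higher and 636 lower.

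KLK5, a kallikrein-related peptidase of stratified epithelia, led the higher genes. Its level was 13.38 to 13.85 on the 6 HCC38 arrays, with a median of 13.56. In BT549 it ran between 4.41 and 6.24 with a median of 4.86, in MDA-MB-157 between 4.41 and 5.25 with a median of 4.50, and in MDA-MB-231 between 4.54 and 7.50 with a median of 4.92. The groups did not overlap, and the value of 7.50 belonged to the second MDA-MB-231 array at 0 h. The difference was 8.53 ± 0.31 log2 (SE; adjusted p = 9.1e-15 in limma), and 8.69 without that array. KLK5 was detected on 3 of 6 arrays of BT549, 2 of MDA-MB-157 and 3 of MDA-MB-231, so the difference is against signals near background and no fold is given. On the first slide the difference was 8.83 and on the second 8.22, and other KLK5 probes gave 7.85 and 5.95. In these bulk RNA samples, fewer cells with an RNA and less of it per cell cannot be told apart.

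CT45A3 belongs to a family of near-identical cancer-testis genes on the X chromosome, normally silent outside the germ line. HCC38 arrays lay between 12.15 and 12.29. The other lines lay between 4.52 and 5.47 in BT549, 4.38 and 4.84 in MDA-MB-157, and 4.42 and 6.11 in MDA-MB-231. No MDA-MB-157 array detected it, so the signal in HCC38 was at least 165-fold higher, with a difference of 7.48 ± 0.15 log2 (adjusted p = 9.78e-19 in limma) and of 6.81 and 7.25 on other probes. Where a line has no array on which a gene is detected, its level is bounded by the lowest detectable signal, and the fold is given in this form throughout. A line with any detected array enters at its measured mean, which can lie below that signal. Such a fold is therefore a bound only for the lines without a detected array. For CT45A3, BT549 and MDA-MB-231 entered at means of 4.81 and 4.82, with 1 detected array each. CA2, a cytosolic carbonic anhydrase, lay between 11.66 and 12.46 in HCC38, against 4.27 to 4.98 in BT549, 4.32 to 4.57 in MDA-MB-157 and 4.44 to 5.98 in MDA-MB-231. Its signal was at least 121-fold higher in HCC38 (difference 7.22 ± 0.16 log2), and the 7 other carbonic anhydrase genes tested gave no call in all 9 comparisons. RARRES1, a membrane protein named for its response to retinoic acid receptor ligands, lay between 11.37 and 11.81 in HCC38, and between 4.37 and 5.54 on every other array. It was at least 99.0-fold higher (difference 6.91 ± 0.08 log2, adjusted p = 7.54e-22 in limma), and other probes of the gene gave 6.51 and 3.50.

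**Figure D1:**
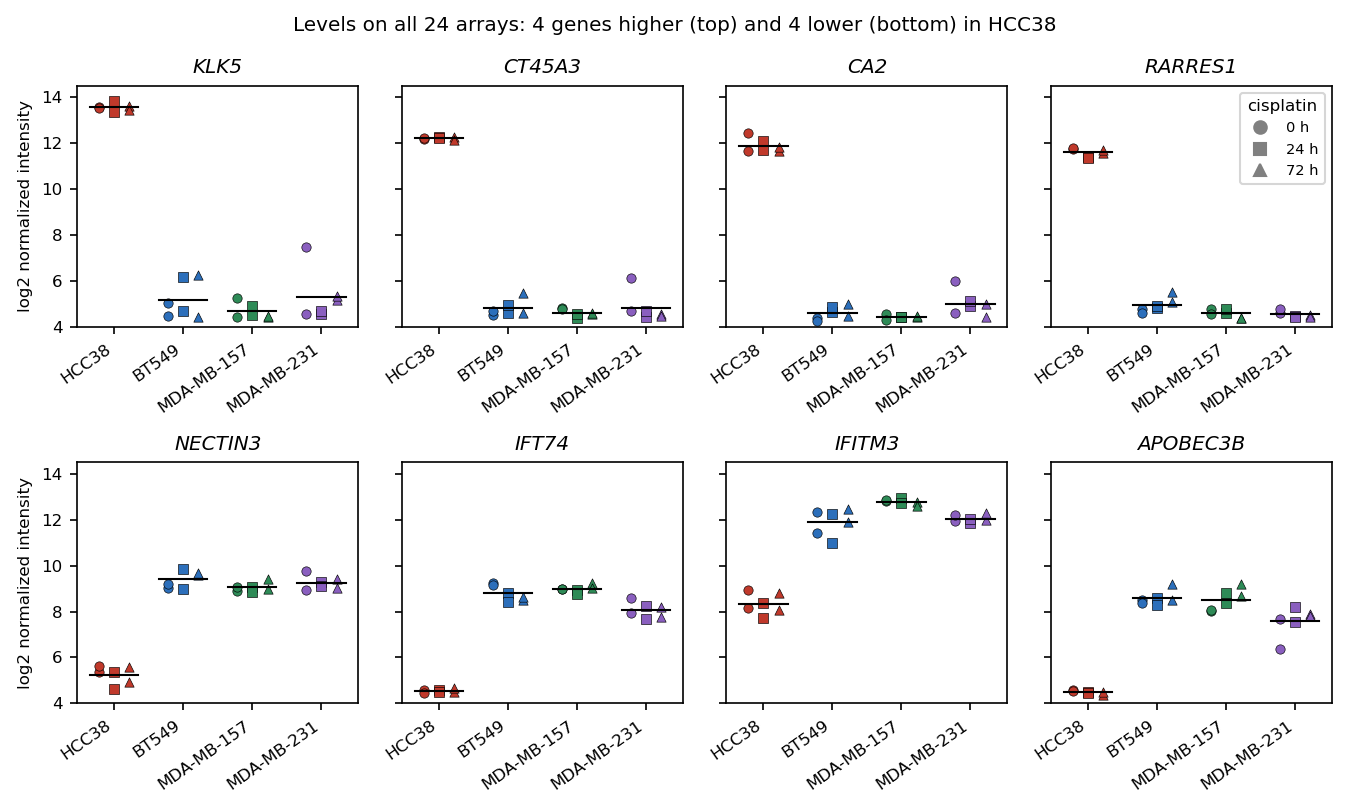
Levels of 8 genes on all 24 arrays, as log2 normalized intensity on the vertical axis, with 1 point per array, the line on the horizontal axis, the time as the marker shape and a bar at the mean. The 6 HCC38 points of KLK5, CT45A3, CA2 and RARRES1 sit above every other point, and those of NECTIN3, IFT74, IFITM3 and APOBEC3B below every other point.

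The 11 other leading genes gave differences between 5.55 and 6.59. KLK6 and KLK7 belong to the same peptidase family as KLK5. RAB25 is a small GTPase of epithelial recycling endosomes, LAD1 an anchoring-filament protein of the basement membrane, and CDH1 encodes E-cadherin. SERPINB5 (maspin) and SERPINA3 (alpha-1-antichymotrypsin) are serpins. CRABP2 carries retinoic acid to its receptor, AKR1C2 is an aldo-keto reductase that acts on steroids, and S100A9 is a subunit of calprotectin. SERPINA3 ran between 10.92 and 12.84 in HCC38, against 4.75 to 5.66 in BT549, 4.80 to 5.97 in MDA-MB-157 and 4.43 to 5.57 in MDA-MB-231. AKR1C2 ran between 11.22 and 12.95 in HCC38, and between 4.84 and 6.58 on all other arrays. A second AKR1C2 probe gave a difference of only 0.07, a second LAD1 probe 0.10 and a second CT45A1 probe 3.36, and AKR1C and CT45 signals may come from close copies of the genes named. Without the second MDA-MB-231 array at 0 h, all 30 leading genes kept their call.

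**Figure D2:**
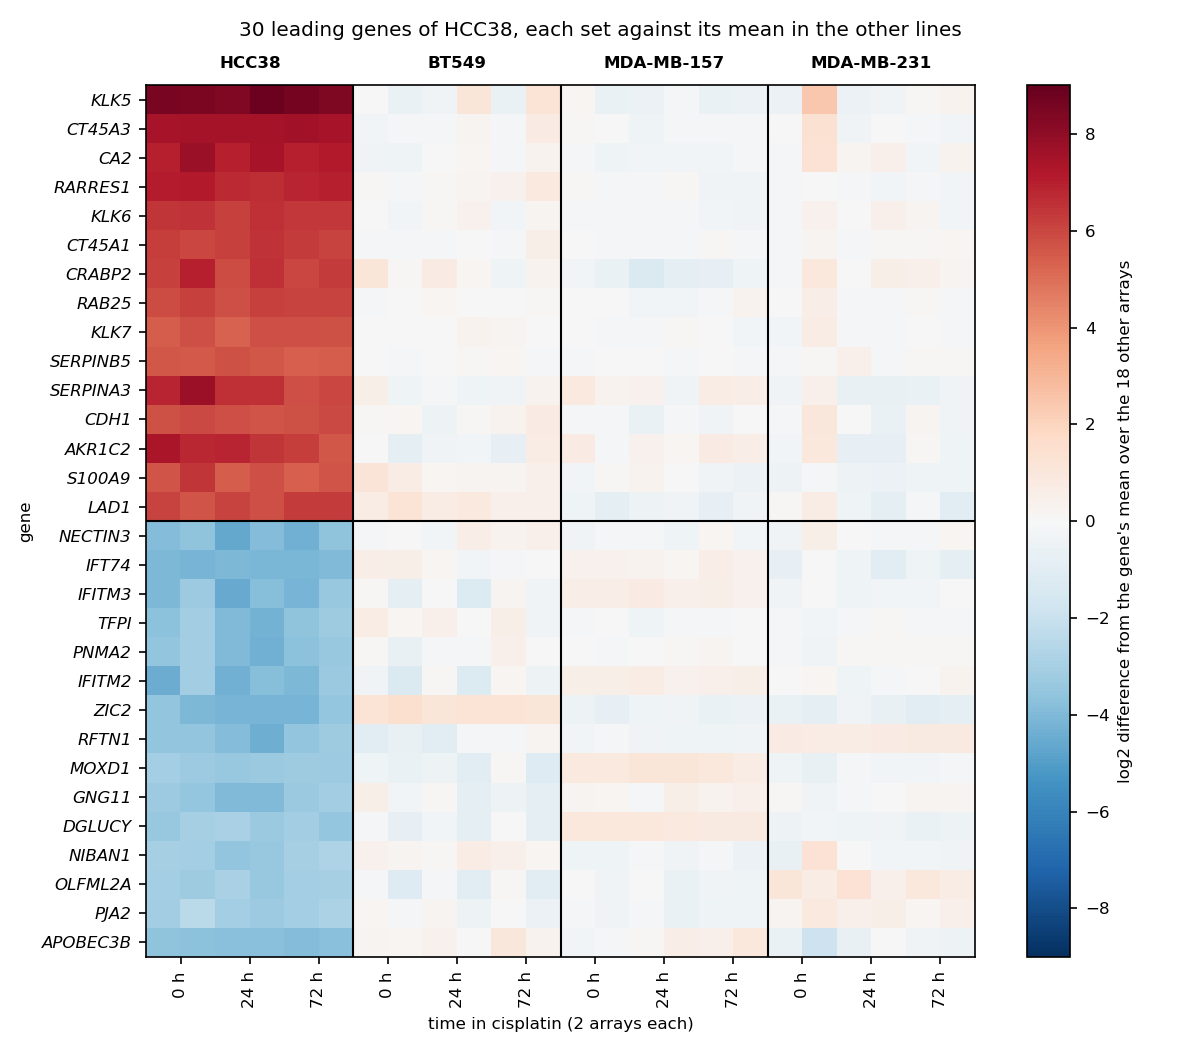
Difference of each array from the gene's mean over the 18 other arrays, in log2 units by colour, for the 15 higher and 15 lower genes with the largest smallest difference. Columns are arrays, ordered by line and time, and rows are genes. The HCC38 columns are uniformly coloured, and the second MDA-MB-231 column at 0 h is the warmest of the other lines for KLK5, at a level of 7.50.

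Of 15 listed kallikreins, 9 did not pass the detection filter. The 6 tested were KLK5, KLK6, KLK7, KLK8, KLK10 and KLK11, and each was higher in all 9 comparisons. KLK7, KLK8, KLK10 and KLK11 passed the filter through HCC38 only, so the count of 6 was largely fixed by it, and with the authors' values 4 of the 6 were called. KLK6, which cleaves extracellular matrix and myelin proteins, ran between 10.84 and 11.21 in HCC38, 4.43 and 5.06 in BT549, 4.34 and 4.59 in MDA-MB-157, and 4.40 and 5.14 in MDA-MB-231. That made it at least 75.3-fold higher (difference 6.39 ± 0.11 log2). KLK7, the chymotrypsin-like member that cleaves corneodesmosomes of the skin, ran between 9.88 and 10.34 in HCC38 and between 4.31 and 5.23 elsewhere, at least 41.3-fold higher. KLK10 ran between 7.80 and 8.52 in HCC38 and between 4.30 and 5.29 elsewhere, at least 9.95-fold higher. KLK11 was at least 2.25-fold and KLK8 at least 1.83-fold higher, both detected on 0 of the 18 other arrays. Probes of one gene did not always agree: other probes of KLK6 gave 0.44, of KLK10 0.01 and of KLK11 0.07.

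Proteases that work with kallikreins at the epithelial surface, and the inhibitors that restrain them, were higher in 10 of 13 tested genes. That was 76.9%, against 5.90% of all genes, with a median of 3.50, and 5 of the 13 passed the filter through HCC38 only. Of the membrane-bound proteases, PRSS8 (prostasin) was at least 18.9-fold higher, ST14 (matriptase), which starts such cascades, at least 7.67-fold and PRSS22 at least 4.35-fold. Of their Kunitz-type inhibitors, SPINT2 gave a difference of 4.64 ± 0.15 log2 and SPINT1 was at least 5.51-fold higher. Of the secreted inhibitors, PI3 (elafin) was at least 21.4-fold, SLPI at least 15.3-fold and CST6 (cystatin E/M) at least 12-fold higher. SERPINB5 ran between 9.95 and 10.29 in HCC38, and between 4.39 and 5.03 on the 18 other arrays, at least 38.3-fold higher.

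Epithelial junction and polarity genes gave 19 higher (76%, against 5.90% of all genes) and 0 lower of 25 tested, with a median of 2.996. With median scaling 16 were higher, and 5 of the 25 passed the filter through HCC38 only. CDH1 ran between 11.07 and 11.32 in HCC38, 4.91 and 6.16 in BT549, 4.81 and 5.43 in MDA-MB-157, and 4.82 and 6.39 in MDA-MB-231. The difference was 5.80 ± 0.15 log2 (adjusted p = 3.11e-17 in limma), a 55.9-fold higher signal. RAB25 ran between 10.36 and 10.71 in HCC38 and between 4.31 and 5.16 elsewhere, at least 53.5-fold higher. The desmosomal cadherin DSC2 ran between 10.81 and 11.58 in HCC38, 5.84 and 7.04 in BT549, 4.69 and 5.10 in MDA-MB-157, and 5.57 and 6.01 in MDA-MB-231, a difference of 5.59 ± 0.13. The related DSG3 was at least 21.2-fold higher, and the plaque protein JUP (plakoglobin) gave 3.22 ± 0.14. Of the tight-junction genes, CLDN7 was at least 16.7-fold, CLDN3 at least 12.5-fold and MARVELD3 at least 9.85-fold higher, and the polarity gene CRB3 was at least 19.7-fold higher.

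EPCAM, an epithelial adhesion molecule, was graded over the lines. It ran between 12.88 and 13.21 in HCC38, 4.38 and 6.50 in BT549, 7.72 and 8.35 in MDA-MB-157, and 9.08 and 9.38 in MDA-MB-231. HCC38 was highest and no line's range overlapped another's. Of the 6 junction genes without a call, CDH3 (P-cadherin) had a mean difference of 4.11 and AP1M2, an epithelial sorting adaptor, one of -1.94.

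E2-box elements, written CAGGTG, are the sites that SNAI and ZEB repressors are known to bind in promoters of epithelial genes. The 250 bases before the start of 3 higher genes are shown because each holds one. They are from RefSeq on GRCh38.p14, printed on the gene's own strand, with the element in capitals, and on the opposite strand it reads CACCTG. RAB25 is at chr1:156060910-156061159 (plus strand), DSC2 at chr18:31102422-31102671 (minus strand) and KLK6 at chr19:50969592-50969841 (minus strand).
RAB25: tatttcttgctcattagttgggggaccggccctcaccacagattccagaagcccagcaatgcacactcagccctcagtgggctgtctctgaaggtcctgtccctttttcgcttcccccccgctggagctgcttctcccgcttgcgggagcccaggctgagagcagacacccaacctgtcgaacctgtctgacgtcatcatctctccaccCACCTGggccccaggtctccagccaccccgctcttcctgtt
DSC2: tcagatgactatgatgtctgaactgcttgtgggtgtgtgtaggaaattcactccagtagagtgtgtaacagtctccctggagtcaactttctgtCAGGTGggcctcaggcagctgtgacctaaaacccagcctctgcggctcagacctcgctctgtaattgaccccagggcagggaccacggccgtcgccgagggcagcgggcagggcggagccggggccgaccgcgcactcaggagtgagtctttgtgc
KLK6: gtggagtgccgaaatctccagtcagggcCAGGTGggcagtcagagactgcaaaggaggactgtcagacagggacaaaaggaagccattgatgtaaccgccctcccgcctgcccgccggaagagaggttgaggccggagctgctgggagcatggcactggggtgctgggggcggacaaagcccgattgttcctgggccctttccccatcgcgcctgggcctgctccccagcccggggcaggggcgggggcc
The element starts 41 bases before the RAB25 start, 156 before that of DSC2 and 222 before that of KLK6. Searched on both strands, CAGGTG was in 7 of the 16 junction genes that have a window (43.8%), in 1 of 5 kallikreins and in 151 of 694 higher genes (21.8%), against 17.5% of all 27305 windows. The 7 junction genes included DSP, PATJ and AP1M2, which were not called higher. A match says only that these letters are in the window.

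Factors of epithelial identity were higher in 6 of 15 tested (40%, against 5.90% of all genes), with a median of 1.00. With median scaling 4 were higher, and 5 of the 15 passed the filter through HCC38 only. OVOL2, a zinc-finger repressor of mesenchymal genes, was at least 16.8-fold higher. GRHL2, a grainyhead factor of epithelial junction genes, ran between 6.90 and 7.20 in HCC38 and was detected on 0 of the 18 other arrays, where it lay between 4.30 and 4.76. ESRP1, which directs epithelial splicing, ran between 6.62 and 7.33 in HCC38 and was likewise detected on 0 of 18 others, where it lay between 4.40 and 4.86. ELF3 gave 2.23 ± 0.13. The luminal factors GATA3 (at least 2.94-fold) and FOXA1 (at least 2.12-fold) were also higher. The list of hormone receptor and luminal genes as a whole gave 4 higher (26.7%) and 1 lower (6.67%) of 15, against 5.90% and 4.27% of all genes. With median scaling it gave 1 and 1. Its median was 0.08, and 1 of the 15 passed the filter through HCC38 only. The lower gene was MLPH, which links melanosomes to their motor (-2.34 ± 0.10). Keratins of basal cells were higher in 2 of 3 tested (KRT15 at least 14.4-fold and KRT16 at least 9.40-fold, with a difference of 1.85 log2 from another KRT16 probe). Of the simple keratins of luminal cells, KRT7 was higher (3.87 ± 0.18). KRT19 was not called, for it ran between 11.90 and 13.32 in HCC38 and between 11.58 and 12.07 in MDA-MB-231, ranges that overlap, against 6.10 to 6.65 in BT549 and 4.71 to 6.78 in MDA-MB-157.

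Mesenchymal genes were lower in 3 of 26 tested (11.5%, against 4.27% of all genes) and higher in 0, with a median of -0.71. The lower calls numbered 1 with median scaling, and 2 with the authors' values, without background correction, with an offset of 50 or without the second MDA-MB-231 array at 0 h. VIM, the intermediate filament of mesenchymal cells, ran between 12.002 and 13.04 in HCC38, against 13.71 to 14.34 in BT549, 14.26 to 14.51 in MDA-MB-157 and 13.81 to 14.36 in MDA-MB-231. The difference was -1.78 ± 0.10 log2. SNAI2, a repressor of E-cadherin, ran between 5.98 and 7.67 in HCC38, 8.11 and 9.38 in BT549, 10.01 and 10.38 in MDA-MB-157, and 9.66 and 10.18 in MDA-MB-231 (-2.78 ± 0.14). ZEB2, another such repressor, was detected on no HCC38 array and on 17 of the 18 others, at least 2.47-fold lower. TWIST1 was not called lower, because HCC38, at 4.90 to 6.18, was not below MDA-MB-231, at 4.41 to 4.92. The means of these 2 lines were 5.54 and 4.72. HCC38 did lie below BT549 (10.49 to 10.87) and MDA-MB-157 (10.91 to 11.53). Collagens gave 1 lower gene of 17 (COL5A1, -2.15 ± 0.13; median -1.28), and fibroblast markers 0 of 10, with a median of -1.51.

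**Figure D3:**
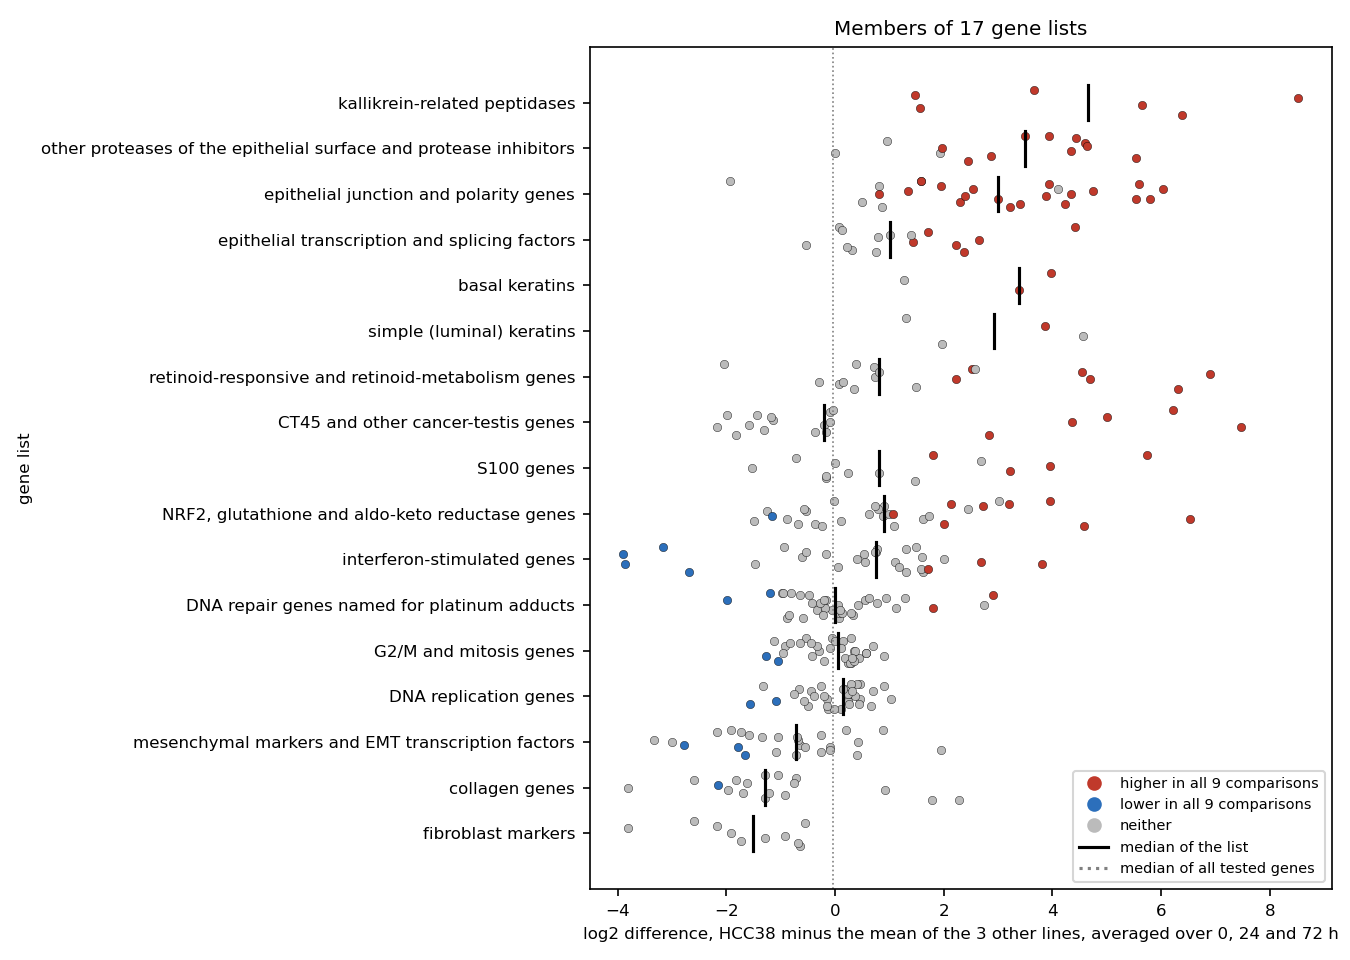
Log2 difference of HCC38 minus the mean of the 3 other lines, averaged over times, on the horizontal axis, for each tested member of selected gene lists, down the page. Points are genes, coloured by whether they were called in all 9 comparisons, and bars are list medians. Kallikreins, at a median of 4.65, lie farthest right, and fibroblast markers, at -1.51, farthest left; the dotted line is the median of all genes, -0.04.

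Retinoid genes were higher in 6 of 17 tested (35.3%, against 5.90% of all genes), with a median of 0.81. Of the 17, 2 passed the detection filter through HCC38 only. STRA6, the receptor that takes up retinol, was at least 3.77-fold higher. ALDH1A3, which makes retinoic acid, gave 4.54 ± 0.11. CRABP2 ran between 11.91 and 13.03 in HCC38, 5.63 and 7.07 in BT549, 4.71 and 5.78 in MDA-MB-157, and 5.87 and 6.96 in MDA-MB-231, a 79.8-fold higher signal. CYP26A1 (at least 22-fold higher) and CYP26B1 (at least 5.39-fold higher) break retinoic acid down. Other CYP26A1 probes gave differences of 1.46, 2.11 and -0.10 log2.

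Cancer-testis genes gave 5 higher (26.3%, against 5.90% of all genes) and 0 lower of 19 tested. Against the mean of the other lines 10 of the 19 were lower, and the list median was -0.21. The genes higher in all 9 comparisons were CT45A1, CT45A3 and CT45A5 (at least 26.2-fold), MAGEA10 (at least 14.2-fold) and PRAME (at least 6.51-fold). Of these, CT45A1, CT45A5 and MAGEA10 passed the detection filter through HCC38 only. CT45A1 ran between 10.50 and 10.99 in HCC38 and between 4.27 and 5.01 elsewhere, at least 58.3-fold higher. The probes of CT45 genes cannot be assigned with certainty to one copy. Among the S100 calcium-binding proteins, 4 of 13 were higher (30.8%), and 1 of the 13 passed the filter through HCC38 only. S100A9 ran between 10.32 and 11.35 in HCC38, 5.12 and 6.10 in BT549, 4.38 and 5.25 in MDA-MB-157, and 4.38 and 4.86 in MDA-MB-231, at least 47.9-fold higher, and its partner S100A8 was at least 13.4-fold higher. S100A14 gave 3.22 ± 0.12, and S100A1 was at least 2.85-fold higher.

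Genes of glutathione and NRF2-driven detoxification gave 8 higher (26.7%, against 5.90% of all genes) and 1 lower of 30, with a median of 0.90. With median scaling 3 were higher and 0 lower, and 1 of the 30 passed the filter through HCC38 only. The higher ones included MGST1, a membrane glutathione transferase (3.95 ± 0.14, other probes 3.36 and 1.43), GPX3, a secreted glutathione peroxidase (3.21 ± 0.11), SLC7A11, the cystine importer (at least 5.50-fold), GSTT1 (at least 3.96-fold), SRXN1 (2.00 ± 0.15) and GSTP1 (1.06 ± 0.07). AKR1C4 gave 4.59 ± 0.24. GSTM3 was lower (-1.16 ± 0.12).

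Genes of platinum and copper transport gave 1 higher (8.33%) and 2 lower (16.7%) of 12, and with median scaling 1 and 0. ABCC3, an organic anion pump, was the higher one, at 11.02 to 11.64 in HCC38, 6.32 to 7.67 in BT549, 8.47 to 9.45 in MDA-MB-157 and 8.74 to 9.998 in MDA-MB-231 (3.05 ± 0.18). The copper chaperone ATOX1 (-1.16 ± 0.09) and the exporter SLC47A1 (-2.08 ± 0.16) were lower. Of 36 repair genes, 2 were higher and 2 lower (5.56% each, near the 5.90% and 4.27% of all genes), with a median of 0.01. SLFN11, which blocks stalled replication forks, ran between 9.03 and 9.68 in HCC38, 6.99 and 8.12 in BT549, 6.48 and 7.23 in MDA-MB-157, and 4.31 and 5.05 in MDA-MB-231 (2.91 ± 0.14). ERCC1, a subunit of the excision nuclease, was higher (1.80 ± 0.08), with 1.56, 2.04 and -0.03 on other probes. BRCA1, which acts in homologous recombination, ran between 5.45 and 6.51 in HCC38, 7.38 and 7.87 in BT549, 6.92 and 7.88 in MDA-MB-157, and 6.77 and 7.83 in MDA-MB-231 (-1.19 ± 0.13). FANCE, of the Fanconi anaemia core complex, was lower (-2.00 ± 0.11). Mitosis genes gave 0 higher and 2 lower of 32 (AURKB at -1.28 ± 0.11 and KIF11 at -1.06 ± 0.11). Replication genes gave 0 higher and 2 lower of 33 (POLA1 at -1.56 ± 0.12, another probe -0.44, and MCM3 at -1.10 ± 0.11). These lower shares, 6.25% and 6.06%, were near the 4.27% of all genes, and both counts were 0 with median scaling.

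NECTIN3, an adhesion molecule that pairs with other nectins, led the genes lower in HCC38. It ran between 4.63 and 5.63 in HCC38, 8.996 and 9.86 in BT549, 8.84 and 9.40 in MDA-MB-157, and 8.95 and 9.78 in MDA-MB-231. The difference was -3.99 log2, a 15.9-fold lower signal, and was -4.04 on the first slide and -3.94 on the second. IFITM3, an antiviral membrane protein, ran between 7.70 and 8.96 in HCC38, 10.98 and 12.47 in BT549, 12.61 and 12.95 in MDA-MB-157, and 11.85 and 12.28 in MDA-MB-231 (-3.90 ± 0.18). Its neighbour IFITM2, whose sequence is close enough that the 2 signals may overlap, gave -3.87 ± 0.20. APOBEC3B, a cytidine deaminase that edits DNA, was detected on no HCC38 array, where it lay between 4.34 and 4.58, against 8.29 to 9.22 in BT549, 8.01 to 9.21 in MDA-MB-157 and 6.37 to 8.22 in MDA-MB-231, at least 10.1-fold lower. ZIC2, a zinc-finger transcription factor, ran between 5.18 and 5.91 in HCC38, 10.41 and 10.79 in BT549, 8.61 and 9.04 in MDA-MB-157, and 8.39 and 9.07 in MDA-MB-231. TFPI, an inhibitor of blood coagulation, ran between 5.74 and 6.87 in HCC38 and between 9.62 and 10.62 elsewhere, and other probes gave -3.48 and -1.60. MOXD1 was detected on no HCC38 array and was at least 7.45-fold lower, and another probe gave -1.64. The other genes among the 15 were PNMA2, RFTN1, GNG11, DGLUCY, NIBAN1, OLFML2A and PJA2, besides IFT74.

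Interferon-stimulated genes gave 3 higher (10.7%) and 4 lower (14.3%) of 28, against 5.90% and 4.27% of all genes. Their median was 0.74, and median scaling gave 0 higher and 4 lower. OASL (3.82 ± 0.25), USP18 (2.68 ± 0.12) and ISG20 (1.72 ± 0.14) were higher, while IFITM3, IFITM2, BST2 (-3.17 ± 0.28) and IRF7 (at least 5.12-fold) were lower. HLA-DRB1 was higher (at least 1.86-fold) among 6 MHC class II genes, and 0 of 16 class I genes were called either way. Of the 6, 1 passed the filter through HCC38 only, and 0 were called with the authors' values. Of 26 chemokines and cytokines, CX3CL1 (2.06 ± 0.15), CXCL14 (at least 3.09-fold), CCL20 (at least 2.59-fold) and TNF (at least 1.24-fold) were higher (15.4%, against 5.90% of all genes). The count was 2 with median scaling, without background correction or with an offset of 50, and 1 with the authors' values. Against the mean of the other lines, 10 of the 26 were higher and 9 lower, with a list median of 0.02. Of the 26, 1 passed the filter through HCC38 only.

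Genes that mark breast subtypes and progenitors are given next. ERBB3 (3.97 ± 0.11, another probe 0.40) and ERBB2 (1.44 ± 0.09), which pair as receptors, were higher, as were the receptor kinases EPHA1 (1.97 ± 0.12), DDR1 (1.92 ± 0.12, other probes -0.10 and 0.41) and MST1R (at least 2.53-fold), 5 of 30 such kinases in all (2 with median scaling). These 5 made 16.7% of the 30 kinases, against 5.90% of all genes, and 2 of the 30 passed the filter through HCC38 only. ESR1, the oestrogen receptor, had no probe that passed the detection filter, and PGR was detected on no HCC38 array. CD24 ran between 12.33 and 12.88 in HCC38, 11.10 and 11.84 in BT549, 11.55 and 11.96 in MDA-MB-157, and 8.22 and 9.18 in MDA-MB-231 (1.98 ± 0.13). CD44, the hyaluronan receptor, ran between 10.98 and 11.64 in HCC38, 13.002 and 13.21 in BT549, 12.55 and 12.82 in MDA-MB-157, and 12.38 and 12.99 in MDA-MB-231 (-1.37 ± 0.09, other probes -1.93 and -0.08). PROM1 was higher (at least 2.97-fold) and NT5E lower (-3.13 ± 0.14). CD24, CD44, PROM1 and NT5E belong to a list of 14 tested breast stem and progenitor markers. Of these 14, 4 were higher (28.6%, against 5.90% of all genes) and 2 lower (14.3%, against 4.27%). With median scaling, 3 were higher and 0 lower, and 1 of the 14 passed the filter through HCC38 only.

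The other lists are given by their counts, beside the 5.90% higher and 4.27% lower of all genes. Apoptosis genes gave BID (2.21 ± 0.09, other probes 1.87 and 0.12), CASP1 and HRK higher of 25. SOX and neural crest factors gave EN1 (at least 3.90-fold) and SOX10 (at least 1.33-fold) higher (13.3%) and SOX13 lower of 15. Of these 15, 2 passed the filter through HCC38 only and were detected on 0 of the 18 other arrays, so the 13.3% is a description. Wnt and Notch genes gave WNT10A higher and AXIN2 (-2.53 ± 0.14) and FZD2 lower of 32, and hypoxia genes gave EGLN3 higher and HK2 (-2.61 ± 0.12, another probe -1.33) lower of 25. Integrins and laminins gave ITGB6 and ITGA4 higher of 22. In each of the Wnt and Notch, hypoxia, and integrin and laminin lists, 1 gene passed the filter through HCC38 only. HOX genes gave 0 of 23 and metallothioneins 0 of 7. Immune markers gave CD14 (2.09 ± 0.12, another probe 0.97) higher and CD68 (-3.17 ± 0.12, other probes -1.95 and -0.95) lower of 9, and endothelial markers 0 of 3.

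Histone genes were singled out as a family after the values were seen, so their counts are a description. These genes lie in clusters on chromosomes 6 and 1, lack introns, and are transcribed in S phase into mRNAs that mostly end without a poly(A) tail; how well the labelling captured such RNAs was not tested. Of 55 tested, 36 were higher in all 9 comparisons and 51 higher against the mean, beside 5.90% and 30.2% of all genes. The median was 2.09 and the range -0.04 to 5.34. H1-3, H1-5, H2AC7, H2AC15, H2BC26, H3C1, H3C15, H4C4, H4C6, H4C9 and H4C16 passed the detection filter through HCC38 only. On chromosome 1, all 13 were higher in all 9, and on chromosome 6, 22 of 41. H2BC8 ran between 9.90 and 11.15 in HCC38, 4.94 and 6 in BT549, 5.03 and 6.27 in MDA-MB-157, and 4.36 and 4.72 in MDA-MB-231, at least 35.9-fold higher. H2AC18 ran between 12.78 and 13.71 in HCC38, 8.02 and 9.26 in BT549, 8.80 and 9.67 in MDA-MB-157, and 7.95 and 8.71 in MDA-MB-231 (4.55 ± 0.12). Several histone genes are near-identical, so which copy gave a signal is uncertain.

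The octamer ATTTGCAT, a site of POU-domain factors known from H2B promoters, is shown in the 250 bases before the starts of 3 H2B genes, in capitals on the gene's own strand (RefSeq, GRCh38.p14). H2BC8 is at chr6:26216689-26216938 (minus strand), H2BC6 at chr6:26183511-26183760 (plus strand) and H2BC21 at chr1:149886683-149886932 (minus strand).
H2BC8: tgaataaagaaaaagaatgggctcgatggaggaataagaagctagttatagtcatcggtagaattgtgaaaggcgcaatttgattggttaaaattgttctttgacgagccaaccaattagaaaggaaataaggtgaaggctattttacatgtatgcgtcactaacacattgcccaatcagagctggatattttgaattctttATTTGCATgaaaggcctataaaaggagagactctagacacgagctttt
H2BC6: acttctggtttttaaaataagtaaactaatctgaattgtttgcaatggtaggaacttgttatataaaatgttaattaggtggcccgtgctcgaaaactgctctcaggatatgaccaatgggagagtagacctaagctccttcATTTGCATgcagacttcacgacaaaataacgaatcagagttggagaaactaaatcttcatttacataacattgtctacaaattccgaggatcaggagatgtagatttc
H2BC21: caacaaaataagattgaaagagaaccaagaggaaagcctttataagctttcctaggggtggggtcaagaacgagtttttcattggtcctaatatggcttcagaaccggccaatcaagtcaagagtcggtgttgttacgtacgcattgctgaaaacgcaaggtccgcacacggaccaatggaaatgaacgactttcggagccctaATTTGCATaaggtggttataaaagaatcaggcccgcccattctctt
The octamer starts 48 bases before the H2BC8 start, 108 before that of H2BC6 and 46 before that of H2BC21. The H2BC6 difference was 3.68 ± 0.18 and that of H2BC21, which ran between 10.28 and 10.98 in HCC38 and between 5.10 and 7.04 elsewhere, 4.48 ± 0.14. On either strand the octamer was in 11 of 14 H2B windows (78.6%) and in 20 of 53 histone windows (37.7%), against 1.66% of all windows. Neighbouring H2A and H2B genes that are read in opposite directions share windows in part.

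Protocadherin beta genes, a cluster of single-exon adhesion genes on chromosome 5, were again chosen after the values were seen. In all 9 comparisons 10 of 14 were higher, against 5.90% of all genes, with a median of 2.34. PCDHB5, PCDHB8, PCDHB12, PCDHB13 and PCDHB16 passed the detection filter through HCC38 only. PCDHB5 ran between 8.41 and 9.88 in HCC38 and was detected on 0 of 18 other arrays, where it lay between 4.25 and 4.41. PCDHB2 ran between 10.27 and 11.45 in HCC38, 6.06 and 8.21 in BT549, 4.41 and 4.88 in MDA-MB-157, and 4.57 and 5.56 in MDA-MB-231. Long stretches of neighbouring genes were picked for an adjusted p under 0.05 in limma in one direction against the mean. Their shared direction was fixed by this choice, and 30.2% of all genes were higher and 31.3% lower by that measure. Such a stretch of 14 tested genes on chromosome 20 began with NRSN2, with 8 higher in all 9. A lower stretch of 13 genes on chromosome 7 began with NUDCD3, with 10 lower in all 9. The longest lower stretch, 19 genes on chromosome X, had 4 lower in all 9. Chromosomes 18 (13.5%) and 20 (12.7%) held the largest shares of higher genes, and 7 (10.6%) and X (10.5%) the largest shares of lower ones.

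IFT74, a subunit of the intraflagellar transport machinery that builds cilia, lay near other lower genes on chromosome 9. It was detected on no HCC38 array, at 4.45 to 4.65, against 8.41 to 9.25 in BT549, 8.78 to 9.24 in MDA-MB-157 and 7.68 to 8.60 in MDA-MB-231. Its signal was at least 13.2-fold lower (-4.08 ± 0.11 log2, adjusted p = 6.53e-17 in limma). Its neighbours PLAA (-2.71 ± 0.09), CAAP1 (-2.57 ± 0.09, at least 4.30-fold lower) and TUSC1 (-3.29 ± 0.09, at least 7.33-fold lower) were lower in all 9 comparisons too. LINC03106, between CAAP1 and TUSC1, gave -0.04 ± 0.08 and was not called. Its signal was near background in every line, detected on no HCC38 or BT549 array, 1 of MDA-MB-157 and 2 of MDA-MB-231. TUSC1 ran between 4.37 and 4.68 in HCC38, 8.37 and 9.16 in BT549, 7.92 and 8.42 in MDA-MB-157, and 6.22 and 6.74 in MDA-MB-231. PLAA was detected on all 6 HCC38 arrays, at 5.61 to 6.35.

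Further along chromosome 9, beyond TUSC1, lie the tumour suppressors CDKN2A and CDKN2B, which restrain the cell cycle, and MTAP, which salvages methionine. These 3 genes were low in HCC38 and in MDA-MB-231. CDKN2A ran between 4.68 and 6.22 in HCC38, against 10.54 to 11.39 in BT549, 9.93 to 10.35 in MDA-MB-157 and 4.54 to 5.19 in MDA-MB-231. MTAP ran between 4.57 and 5.38 in HCC38, against 9.88 to 10.16 in BT549, 8.19 to 8.49 in MDA-MB-157 and 4.50 to 5.25 in MDA-MB-231. CDKN2B ran between 4.48 and 5.24 in HCC38, against 8.81 to 9.29 in BT549, 7.46 to 8.31 in MDA-MB-157 and 4.43 to 4.75 in MDA-MB-231. HCC38 and MDA-MB-231 overlapped for all 3. The HCC38 mean was not below that of MDA-MB-231 for any of them, so none was called lower. For CDKN2A the means were 5.54 in HCC38 and 4.83 in MDA-MB-231. The differences from the mean of the others were -3.11 for CDKN2A, with -2.67 and -0.24 on other probes, and -2.32 for CDKN2B, with -1.71 and -0.20 on other probes. On the far side of IFT74, TEK (-0.08 ± 0.10) and C9orf72 (0.07 ± 0.16) were close to 0. TEK was near background, detected on 1 HCC38 array, 4 BT549 arrays and no array of the remaining lines, so its difference says little. DNA copy number was not analysed here.

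**Figure D4:**
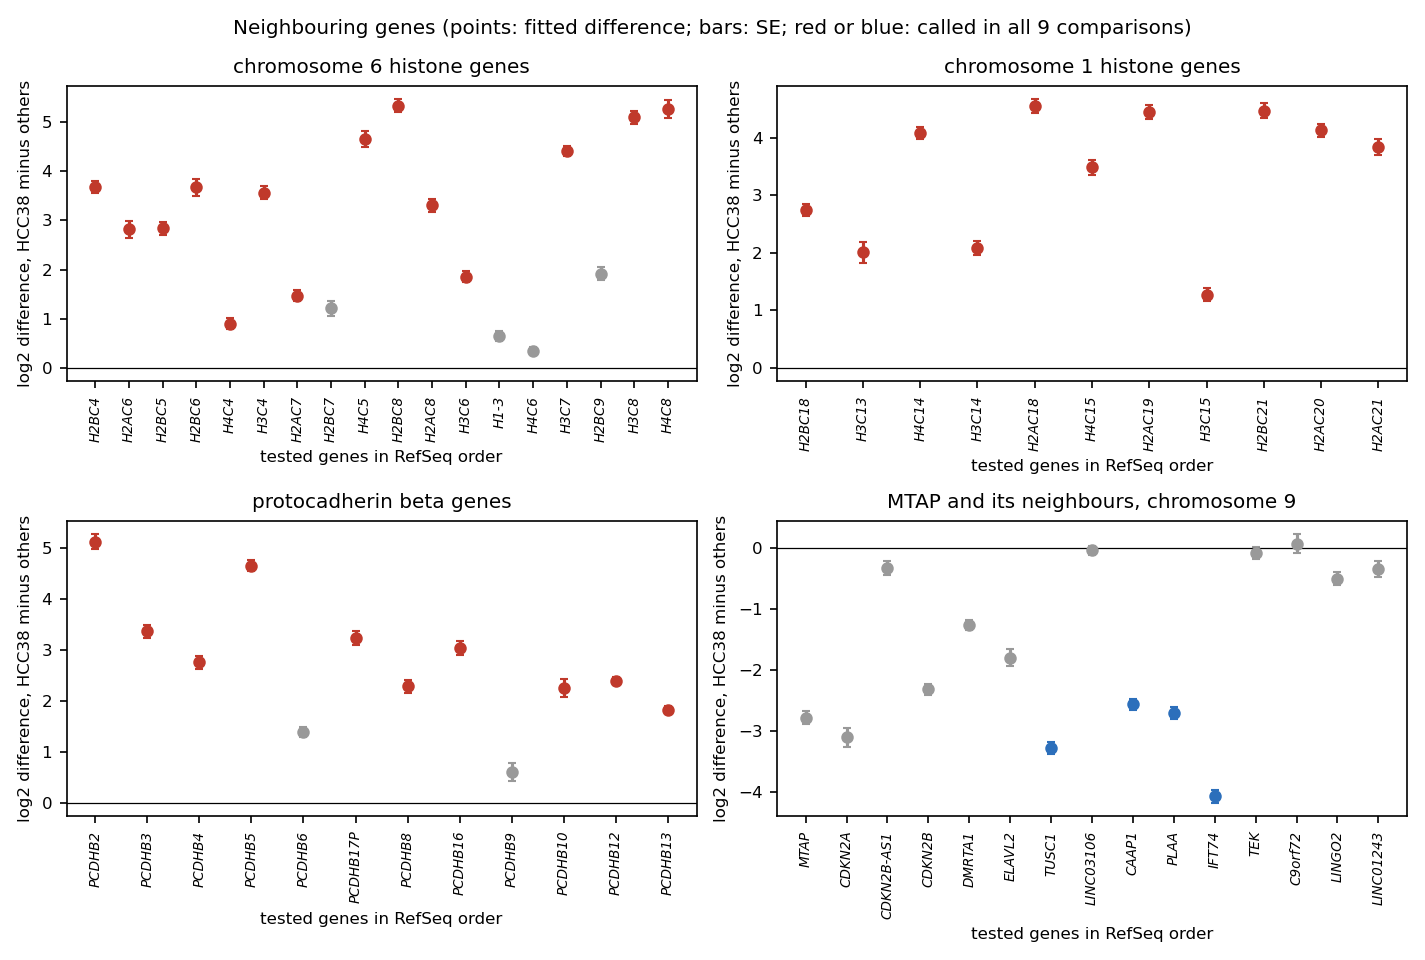
Log2 difference of HCC38 minus the mean of the 3 other lines (points, with SE bars) for neighbouring tested genes in RefSeq order, in the chromosome 6 and chromosome 1 histone clusters, the protocadherin beta cluster and around MTAP. Coloured points were called in all 9 comparisons; all 11 genes of the chromosome 1 panel were, and TUSC1, CAAP1, PLAA and IFT74 lie below -2.5.

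The rule asked for a difference at each time, so the medians over time only describe the genes it chose. The median difference of the 874 higher genes was 1.71 at 0 h, 1.69 at 24 h and 1.67 at 72 h, and that of the 632 lower genes was -1.45, -1.49 and -1.46. The test of the change itself, HCC38 against the mean of the other lines relative to 0 h, gave 0 calls (0%) at 24 h and 0 calls (0%) at 72 h in limma, with lowest adjusted p-values of 0.999 and 0.133. Without the first HCC38 array at 0 h, the counts were 4 and 65. At an unadjusted p under 0.05 in limma there were 508 genes at 24 h and 1050 at 72 h of 14807 tested, where chance alone gives 740. Of the 1050, 132 were among the 874 higher genes and 37 among the 632 lower ones. Those sets were chosen from the same 0 h and 72 h values, so these 2 counts only describe them. A count of 0 does not show that the lines responded alike.

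The genes with the lowest p for a change at 72 h had adjusted p-values of 0.133 in limma and are given as values. DIO2, which activates thyroid hormone, had 9.71 and 10.24 at 0 h, 9.44 and 9.29 at 24 h, and 8.72 and 8.58 at 72 h in HCC38, while the other lines lay between 4.52 and 5.68 at all times. Its difference changed by -1.39 ± 0.24 log2, and another DIO2 probe gave a difference between lines of 0.53. TNF, an inflammatory cytokine, had 5.04 and 4.87 at 0 h, 5.06 and 4.91 at 24 h, and 5.71 and 6.15 at 72 h in HCC38, and lay between 4.26 and 4.53 elsewhere (change 0.99 ± 0.19). H2BC11 had 11.38 and 10.97 at 0 h and 10.38 and 10.21 at 72 h in HCC38, while MDA-MB-157 had 7.29 and 7.16 at 0 h and 8.11 and 9.46 at 72 h (change -2.04 ± 0.38). At 24 h, the lowest p-values were those of PDPN (-0.92), IRF5 (0.83) and NBEA (-1.32), all with an adjusted p of 0.999 in limma. Another IRF5 probe gave a difference between lines of 0.31, against 0.95 on the probe used.

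**Figure D5:**
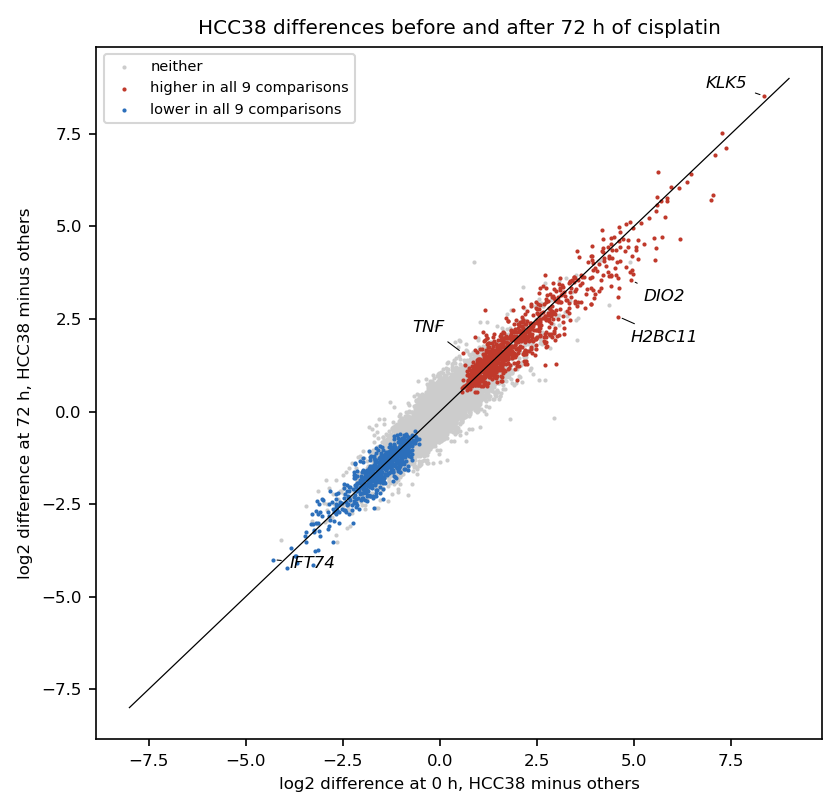
Log2 difference of HCC38 minus the mean of the 3 other lines at 0 h (horizontal axis) and at 72 h (vertical axis), with 1 point per tested gene and a line of equal values. The called genes lie along the line, with KLK5 at the top right and IFT74 at the bottom left, and DIO2 and H2BC11 below it.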

How the data were processed

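RNA from 24 cultures was extracted with a QIAGEN RNAeasy kit, biotin-labelled through Ambion MessageAmp and hybridised to Illumina bead arrays, per the labels' protocols. The authors deposited intensity values without normalization, and per the file headers a detection p-value stands beside each; the software used is not given in the sources used here. The log2 values of a second table deposited by the authors, with no stated scale, centring or direction, had identifiers that did not belong to their values (33 of 47322 under their own). It was used only as an alternative, with 47321 rows matched to probes by value.

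Background was corrected by normexp (offset 16; negative controls inferred from the detection p-values) and arrays were quantile-normalized, in limma 3.58.1 and R 4.3.3. Platform annotation gave 30112 probes 1 symbol, 8 several and 17202 none; 30073 matched RefSeq. Probes detected on at least 2 arrays were kept, with the brightest per gene, which left 14807 of 20046 genes. One model with 12 group means was fitted, and p-values were Benjamini-Hochberg adjusted over all genes. Levels of different probes are not comparable. Script output was tested on simulated data. The members and gene lists were chosen with earlier results of these data known. Named genes were the 15 higher and 15 lower with the largest smallest difference of the 9 comparisons, KLK5, CA2, CT45A3 and RARRES1, list members with the largest differences or with calls, and for each time the 3 genes with the lowest p for a change; histone, protocadherin and chromosome 9 genes were added after their values were seen. The stretches of neighbouring genes on chromosomes 20, 7 and X were also chosen from their values. Precision is limited by having 2 arrays per group. Alternatives changed the background correction, scaling, filter, threshold, blocks and arrays. Replicate numbers did not pair the samples.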

Additional observations from a re-analysis of the deposited data

Results flagged for a closer look

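Of 17210 probes without a single gene symbol, which enter no comparison above, 43 (0.25%) were detected on all 6 HCC38 arrays and on none of the 18 others. They drew attention as signal outside the genes tested. Among the 30112 probes with 1 symbol, 182 (0.604%) showed this pattern for HCC38. The same count of unnamed probes was 7 for BT549, 24 for MDA-MB-157 and 15 for MDA-MB-231. What these probes measure was not analysed here.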

How the results depend on the processing

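Higher and lower counts in all 9 comparisons were 874 and 632. With median scaling they were 427 and 123, and with the authors' deposited log2 values they were 546 and 343; the cause was not tested. A stricter adjusted p of 0.01 left 407 lower genes, and a size of at least 1 log2 in each comparison left 464 and 239, both by construction. Leaving out 1 array at a time gave 740 to 883 higher, 519 to 651 lower, 4200 to 4532 higher than the mean and 4339 to 4725 lower than it. Changes of the HCC38 difference numbered 0 to 4 at 24 h and 0 to 65 at 72 h, with both maxima without the first HCC38 array at 0 h. At 72 h the count of changes was 1 with median scaling, 2 without background correction, 1 with an offset of 50 and 5 with the authors' values. With the replicate number as a block, 908 genes were higher and 659 lower, and no call on a change was made; over 66 pairs of groups, same-numbered arrays correlated at -0.105 to 0.501 (median 0.0575), so the samples share only a number. The 185 named genes were followed by their difference from the mean of the other lines averaged over times, not by the 9 comparisons. Of 6470 such values under these alternatives, 6460 kept their direction and side of the adjusted p threshold of 0.05. Of the rest, 5 no longer passed that threshold and 4 newly passed it, and TEK turned. Its difference was -0.191 to 0.029 when 1 array was left out at a time, with the positive value without the first HCC38 array at 0 h. RAC2 fell short without background correction (adjusted p = 0.0891 in limma). List medians shrank on scales without background correction, for example to 2.71 for the kallikreins. Signals near background limit small folds, and 2 arrays per group limit small changes.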
